A study of Mus musculus with 6 samples.

Results

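Immunoglobulin genes and the genes of the B cell receptor were described in prostate cells of E-cadherin conditional knockout (cKO) mice and control mice. Members were every gene of the deposited table whose symbol starts with Ighv, Igkv, Iglv, Ighg, Igha or Iglc, or equals Igkc, Ighm, Jchain, Cd79a or Cd79b. This gave 31 of 632 listed genes. They were 5 heavy-chain constant genes, 3 light-chain constant genes, 7 heavy variable segments, 11 kappa variable segments, 2 lambda variable segments, Jchain, Cd79a and Cd79b.

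The study sequenced RNA of flow-sorted prostate epithelial cells from C57BL/6 mice at 3 months of age. There were 3 libraries from E-cadherin conditional knockout mice and 3 from control mice, and the labels name no further treatment. Libraries are numbered within each group, and equal numbers do not pair a cKO with a control library. The sources used here do not give the Cre driver, the sorting marker, or whether a library came from 1 animal or a pool. The p-values therefore reflect library-to-library spread, some of which may be technical. All cKO titles carry the mark L7 and all control titles the mark L2, so genotype and whatever the marks stand for cannot be told apart.

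An antibody is built from heavy and light chains, each with a variable part that binds antigen and a constant part that sets its class. A B cell joins 1 of many variable segments to short joining segments before it can make the chain, and daughter cells inherit that choice. B cells carry the antibody on their surface together with the signalling chains CD79a and CD79b, whereas plasma cells secrete it in large amounts. In glandular tissue the secreted class is mainly IgA, whose units are linked by the J chain before transport across epithelium.

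The variable segments are shown at their last 75 coding bases, because this end joins the rest of the chain and because it shows how alike neighbouring segments are. Sequences are from GENCODE M21 on GRCm38, written 5′ to 3′ in the sense of the gene, and capitals mark the last cysteine codon in frame. This codon lies 2 codons after a tyrosine codon in 211 of 215 annotated variable genes with a complete start, or 98.1%. The segments chosen are the leading kappa segment, the leading heavy segment with its near copy, the lambda pair and the kappa segment with the largest difference on the log2 scale. Their places are chr6:68437851-68437925 (plus strand), chr12:115208095-115208169, chr12:115119748-115119822, chr16:19085017-19085091, chr16:19260401-19260475 and chr6:69726573-69726647 (minus strand for these 5).
Igkv15-103: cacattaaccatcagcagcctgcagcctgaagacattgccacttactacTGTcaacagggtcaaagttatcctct
Ighv1-55: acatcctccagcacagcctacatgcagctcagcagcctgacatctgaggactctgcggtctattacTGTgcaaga
Ighv1-50: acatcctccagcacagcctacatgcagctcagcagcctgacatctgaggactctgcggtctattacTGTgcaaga
Iglv1: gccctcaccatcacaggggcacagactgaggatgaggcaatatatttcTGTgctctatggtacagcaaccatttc
Iglv2: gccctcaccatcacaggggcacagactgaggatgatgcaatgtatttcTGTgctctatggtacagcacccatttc
Igkv5-48: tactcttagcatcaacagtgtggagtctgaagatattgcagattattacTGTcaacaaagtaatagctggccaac

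Ighv1-55 and Ighv1-50 have the same letters at all 75 positions, and over the whole coding sequence they differ at 27 of 351. Iglv1 and Iglv2 differ at 3 of these 75 positions and at 11 of 351 in the whole coding sequence, which is 96.9% identity. Each segment was also searched in windows of 50 bases against the transcripts of all other annotated genes. At least 1 window recurred letter for letter in another gene for 16 of the 20 segments, and most windows did for Igkv4-59, Ighv1-84 and Ighv1-50, at 74.3%, 58.3% and 52.2%. Igkv15-103, Igkv16-104, Igkv5-48 and Ighv12-3 had no such window. The sources used here do not say how reads were shared between such copies, so values of single segments with shared windows are uncertain.

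Values are taken as FPKM, a unit inferred from the authors' tools, in which fragments are divided by transcript length and by library size. Levels of different genes are set side by side on this assumption, which could not be checked. Folds are ratios of group means without a pseudocount. Differences are from limma on log2(FPKM + 1), fitted on all 632 listed genes, and a gene rose if its Benjamini-Hochberg adjusted p was under 0.05. The table is itself a selection by the authors, so these p-values describe a selected list. Depth is unknown. The listed genes summed to 33503 to 36565 FPKM in cKO libraries and 31468 to 35576 FPKM in control libraries, which is not a depth. Cdh1, the targeted gene, was not among them and was not analysed here. In this bulk RNA, more cells of a type and more RNA per cell cannot be told apart.

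All 31 genes had a higher mean in cKO libraries. By limma 22 rose and none fell, which is 71.0% against 65.3% of all listed genes that rose and 7.28% that fell. At an unadjusted p under 0.05 none fell either, since every difference was positive. The groups did not overlap for 24 of the 31, or 77.4%, against 66.9% of all listed genes that were higher without overlap. Both shares are near those of the whole list. The median fold was 4.01 over the 23 members with a control mean above 0, and 1.91 over the listed genes with both means above 0. The other 8 members were listed at 0 in all 3 control libraries and have no fold. Together the 31 genes made up 3.65%, 2.14% and 2.39% of the summed FPKM of listed genes in cKO libraries 1, 2 and 3, against 0.856%, 0.801% and 0.557% in control libraries 1, 2 and 3.

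**Figure D1:**
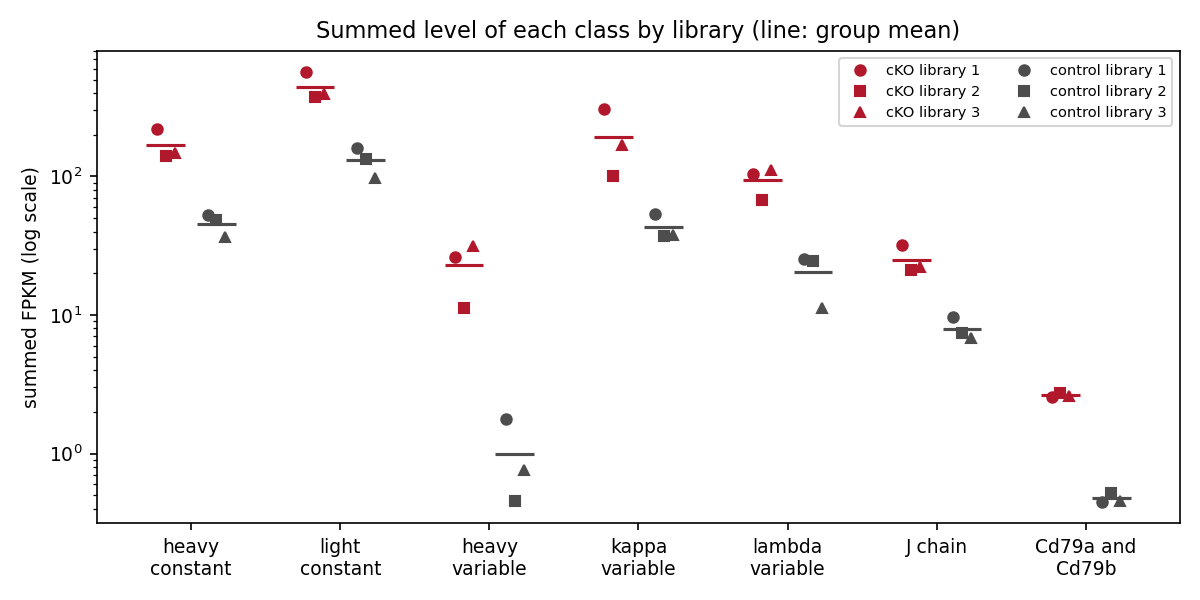
Summed FPKM of each class of members in each library, on a log axis, with cKO libraries in red left of control libraries in grey, markers for libraries 1 to 3 and a line at the group mean. In each of the 7 classes every cKO library lies above every control library, and the gap is widest for the heavy variable segments.

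The heavy-chain constant genes set the antibody class, and all 5 listed ones rose, against 65.3% of all listed genes. Igha, which encodes the heavy chain of IgA (chromosome 12, 113254830 to 113260236, GRCm38), was at 146, 77.7 and 74.9 FPKM in cKO libraries 1, 2 and 3, against 33.0, 22.6 and 22.1 FPKM in control libraries 1, 2 and 3. The lowest cKO library stood above the highest control library, and cKO library 1 and control library 1 were the highest of their groups. Its fold was 3.84 (limma log2 difference 1.86, SE 0.30, adjusted p = 0.0030).

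Ighm, the heavy chain of IgM, the first class a B cell makes (chromosome 12, 113418558 to 113422730), was at 55.8, 51.1 and 48.6 FPKM in cKO libraries and 16.3, 19.2 and 11.7 FPKM in control libraries. The cKO libraries lay close together, with the highest only 1.15 times the lowest. The fold was 3.29 (limma log2 difference 1.68, SE 0.19, adjusted p = 0.0016).

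IgG dominates antibody in serum, and the listed IgG genes were lower than Igha and Ighm in every library. Ighg2b was at 15.0, 5.30 and 17.6 FPKM in cKO libraries, against 2.23, 4.03 and 1.98 FPKM in control libraries, and rose 4.61-fold (limma adjusted p = 0.012). For this gene cKO library 2 was the lowest of its group and control library 2 the highest of its own. Ighg2c, the IgG2 gene that C57BL/6 mice carry in place of Ighg2a, was at 2.37, 2.07 and 4.82 FPKM in cKO libraries, against 0.881, 2.05 and 0.541 FPKM in control libraries. Its groups nearly touched, and its 2.66-fold rise (limma adjusted p = 0.0446) was lost without cKO library 1 or 3 or control library 1 or 3 (adjusted p = 0.0627 to 0.125) and was 4.34-fold without control library 2. Ighg3 was at 0.796, 3.24 and 1.87 FPKM in cKO libraries, against 0.261, 0.250 and 0.0623 FPKM in control libraries. It had the largest fold of the constant genes, 10.3, from the lowest control level (limma adjusted p = 0.011). Of the 50-base windows of Ighg2b 4.33% recur in 3 other genes, most of them in Ighg2c, and 6.01% of those of Ighg2c recur in Ighg2b.

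**Figure D2:**
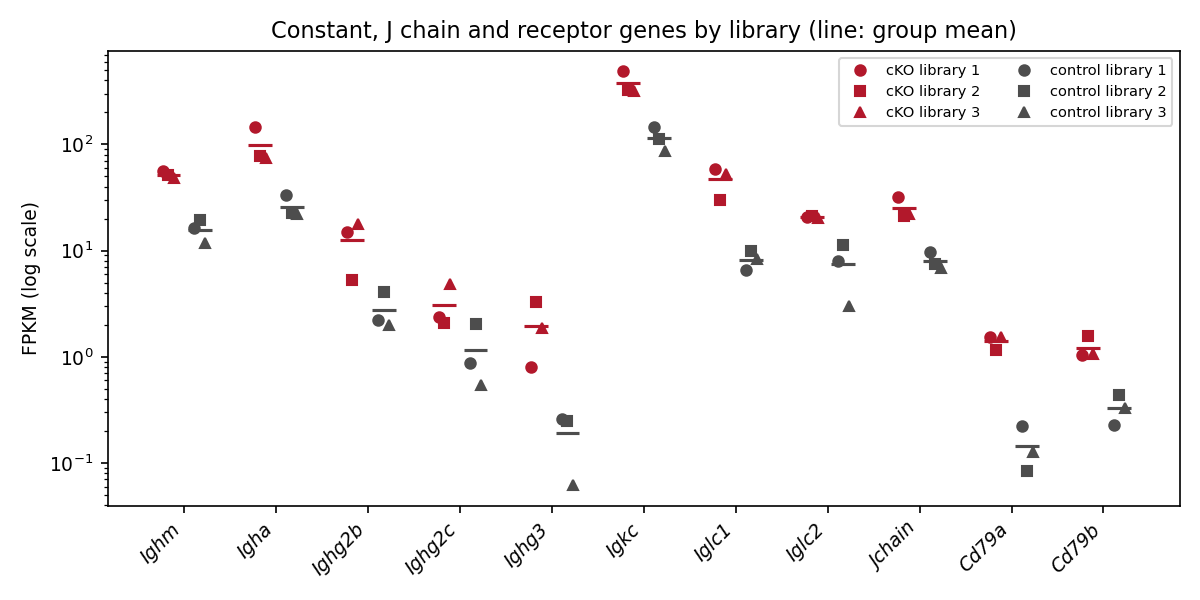
FPKM of the constant genes, Jchain, Cd79a and Cd79b in each library, on a log axis, with cKO libraries in red left of control libraries in grey and a line at each group mean. No gene's groups overlap, and the cKO libraries of Iglc2 and Ighm lie closest together.

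As shares of the summed heavy constant FPKM, the classes did not separate the groups. Igha made up 66.4%, 55.8% and 50.7% in cKO libraries, against 62.7%, 46.9% and 60.8% in control libraries. Ighm made up 25.4%, 36.6% and 32.9% in cKO libraries and 30.9%, 39.9% and 32.1% in control libraries. The ranges overlapped for all 5 genes. Igha was the highest of these 5 genes in all 6 libraries. Other heavy constant genes were not analysed here, so the shares cover the 5 listed genes only. The mean share of Igha was 57.6% ± 8.0 in cKO and 56.8% ± 8.62 in control libraries (SD, n = 3 each). That difference of 0.81 percentage points turned to -3.57 without cKO library 1 and -4.14 without control library 2. With 3 libraries against 3, an exact two-sided permutation test cannot go below p = 0.1, so no share or ratio given here could pass 0.05.

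**Figure D3:**
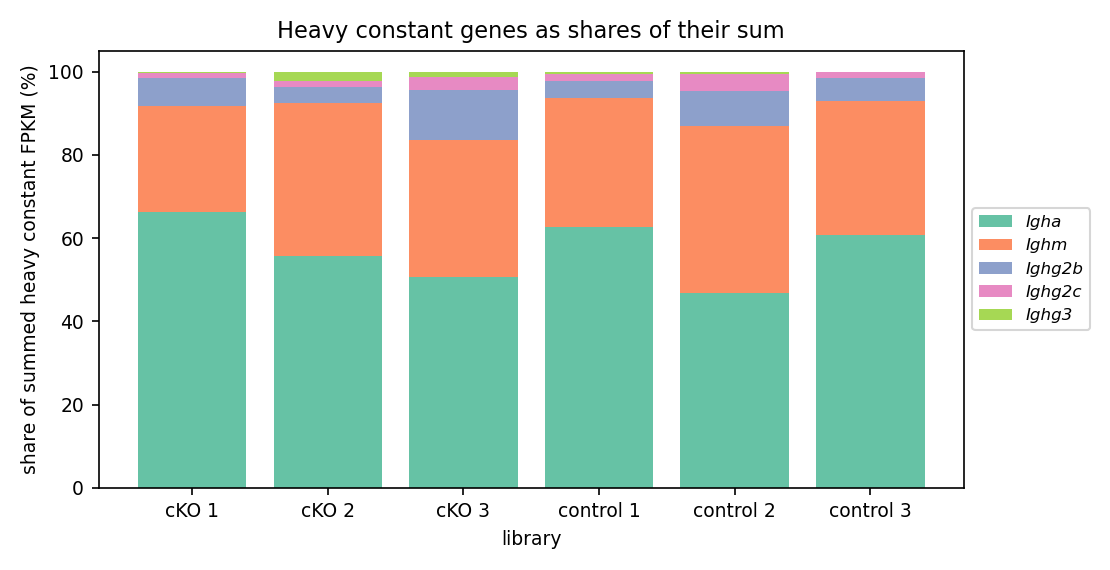
Share of each listed heavy constant gene in their summed FPKM (%), as stacked bars, with the 3 cKO libraries left of the 3 control libraries. Igha is the largest part of every bar, from 50.7% to 66.4% in cKO libraries and from 46.9% to 62.7% in control libraries.

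All 3 listed light-chain constant genes rose, against 65.3% of all listed genes. Igkc, the only kappa constant gene (chromosome 6, 70726435 to 70726966), was at 485, 324 and 317 FPKM in cKO libraries and 146, 112 and 85.9 FPKM in control libraries. Every cKO library was well above the highest control library, and the fold was 3.27 (limma log2 difference 1.70, SE 0.25, adjusted p = 0.0024). It was the highest member in all 6 libraries. A long noncoding RNA gene, Gm30211, covers it on the same strand, so their reads may not be separable.

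Of the lambda constant genes, Iglc1 was at 58.2, 29.7 and 52.4 FPKM in cKO libraries, against 6.52, 9.92 and 8.24 FPKM in control libraries. It rose 5.68-fold (limma adjusted p = 0.0016), the largest fold of the light constant genes. Iglc2 was at 20.9, 20.9 and 20.4 FPKM in cKO libraries, against 8.03, 11.2 and 3.01 FPKM in control libraries, and rose 2.80-fold (limma adjusted p = 0.013). The cKO libraries were nearly equal for Iglc2 while Iglc1 varied 1.96-fold among them. Iglc2 shares 10.5% of its windows with Iglc3, which was not analysed here.

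Lambda made up 14.0%, 13.5% and 18.6% of the light constant FPKM in cKO libraries and 9.05%, 15.8% and 11.6% in control libraries. These ranges overlapped. Lambda was at most 18.6% in any library, so among the listed constant genes kappa was the main light chain in all 6. The ratio of summed light to summed heavy constant FPKM was 2.57, 2.68 and 2.64 in cKO libraries and 3.05, 2.78 and 2.67 in control libraries. Here too the ranges overlapped, by a small margin.

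Jchain encodes the protein that links units of IgA and of IgM. It was at 32.1, 21.1 and 22.2 FPKM in cKO libraries, against 9.69, 7.45 and 6.81 FPKM in control libraries, and rose 3.14-fold (limma log2 difference 1.53, SE 0.21, adjusted p = 0.0021). Like Igha, it was highest in cKO library 1 and, among the controls, in control library 1. Set against the sum of Igha and Ighm, it was 15.9%, 16.4% and 17.9% in cKO libraries and 19.7%, 17.8% and 20.1% in control libraries. These ranges overlapped, by a small margin.

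Cd79a and Cd79b encode the signalling chains of the receptor and were the lowest of the members outside the variable segments, apart from Ighg3 in some libraries. Cd79a (chromosome 7, 24897381 to 24902197) was at 1.54, 1.17 and 1.53 FPKM in cKO libraries, against 0.222, 0.0849 and 0.127 FPKM in control libraries. The fold was 9.77 from a very low control level (limma log2 difference 1.07, SE 0.10, adjusted p = 0.0012). Cd79b was at 1.05, 1.56 and 1.06 FPKM in cKO libraries and 0.228, 0.438 and 0.327 FPKM in control libraries, a 3.68-fold rise (limma adjusted p = 0.0036).

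The ratio of Igkc to Cd79a was 316, 277 and 207 in cKO libraries, against 660, 1325 and 676 in control libraries. These groups did not overlap, but the ratio did not separate them for the partner chain. Igkc stood at 464, 208 and 301 times Cd79b in cKO libraries and 640, 257 and 262 times in control libraries. The summed heavy variable segments went the other way against Cd79a, at 17.1, 9.63 and 20.7 times in cKO libraries and 7.99, 5.40 and 5.99 times in control libraries. Against Cd79b the same sum stood at 25.01, 7.23 and 29.97 times in cKO libraries and 7.75, 1.05 and 2.32 times in control libraries. These ranges overlapped, since cKO library 2 lay below control library 1. Most segments in this sum were listed at 0 in every control library, so its ratios depend on which segments the authors listed. The control values of Cd79a that the ratios to Cd79a rest on were at most 0.222 FPKM. Cd79a shares 8.31% of its windows with the predicted gene Gm32220.

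A stretch of the Cd79a promoter is shown because this gene had the smallest adjusted p of the 31, and its control by the B cell factor EBF1 is a textbook case. It runs from chr7:24897247-24897380 (plus strand), before the annotated starts of both RefSeq and GENCODE, and was taken from RefSeq on GRCm38.p6. Capitals mark CAAGGGAAT, the letters of the EBF1 site known in this promoter.
Cd79a promoter: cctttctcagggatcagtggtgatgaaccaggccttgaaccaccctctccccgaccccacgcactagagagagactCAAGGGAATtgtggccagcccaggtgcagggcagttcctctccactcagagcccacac

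On either strand these letters occur in 80 of 32851 promoter windows, or 0.244%. They were not in the window of Jchain, the only other member with an entry. The octamer ATGCAAAT, bound by POU factors in antibody gene promoters, was in neither window and in 1.74% of all windows. A match is a description and not a measured site.

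Of the 20 variable segments 11 rose and 9 did not pass limma, so 55.0% rose, against 65.3% of all listed genes. The groups did not overlap for 13 of them, or 65.0%, against 66.9% of all listed genes, and for all 11 of the other members. Some segments varied more among cKO libraries than the other members did. The highest value of Igkv16-104 was 9.53 times its lowest, against at most 4.07 times for the constant genes, Jchain and the receptor genes. Other segments varied less than that, such as Iglv2 at 1.54 times. Of the 20 segments 12 were highest in cKO library 1, 2 in cKO library 2 and 6 in cKO library 3. In control libraries 11 segments were listed at 0 in at least 1 library. An exact 0 in such a table can be a failed estimate.

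**Figure D4:**
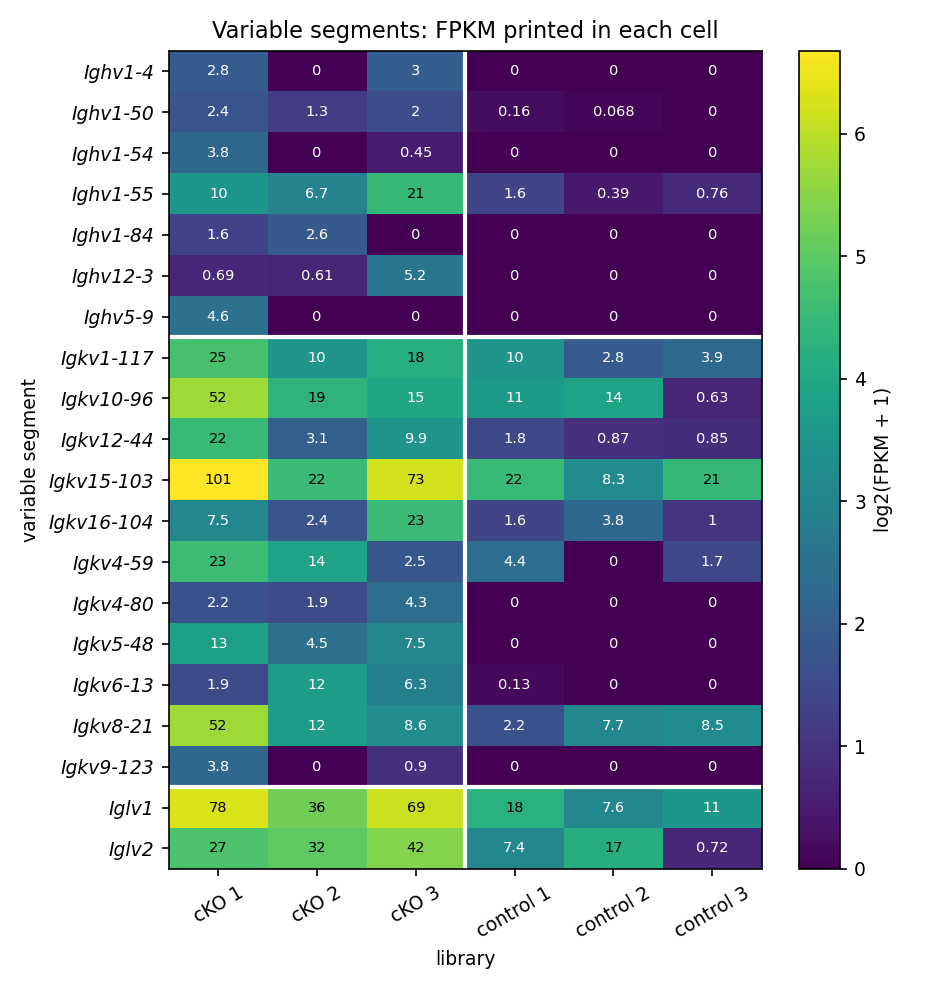
FPKM of each listed variable segment (rows, with heavy, kappa and lambda segments split by white lines) in the 3 cKO libraries, left, and the 3 control libraries, right, coloured by log2(FPKM + 1) with the FPKM printed. Igkv15-103 and Iglv1 are high in most libraries, while 8 segments are at 0 in all control libraries.

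Heavy variable segments summed to 26.2, 11.3 and 31.7 FPKM in cKO libraries, against 1.77, 0.459 and 0.760 FPKM in control libraries. The ratio of means was 23.1, or 4.53 on the log2 scale, and 5.24 on the log2 scale without control library 1. Set against the summed heavy constant genes, the listed heavy segments came to 11.9%, 8.08% and 21.4% in cKO libraries and 3.36%, 0.954% and 2.09% in control libraries. Of 113 annotated heavy variable genes 7 were listed. Most of these 7 were at 0 in every control library, so the ratio and the percentages depend on which segments the authors listed.

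Ighv1-55 (chromosome 12, 115208095 to 115208591) was the leading heavy segment in all 6 libraries. It was at 10.3, 6.72 and 21.1 FPKM in cKO libraries and 1.61, 0.390 and 0.760 FPKM in control libraries. Its 13.8-fold rise was 22.0-fold without control library 1 (limma log2 difference 2.74, SE 0.42, adjusted p = 0.0026). Ighv1-50, which has the same last 75 coding bases, was at 2.40, 1.28 and 2.0 FPKM in cKO libraries, against 0.164, 0.0685 and 0 FPKM in control libraries. It rose as well (limma adjusted p = 0.0016), by 24.5-fold and by 55.4-fold without control library 1.

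The other 5 heavy segments were listed at 0 in all control libraries, and each had a different pattern among the cKO libraries. Ighv12-3 was at 0.691, 0.608 and 5.19 FPKM in cKO libraries, which put it second in library 3. It rose (limma adjusted p = 0.0464), and not without any 1 control library (adjusted p = 0.0959 to 0.111). Ighv5-9 was at 4.64 FPKM in cKO library 1, where it was second, and at 0 in the other 5 libraries. Ighv1-84 was second in cKO library 2 at 2.64 FPKM, was at 1.56 FPKM in cKO library 1 and was listed at 0 in cKO library 3. Neither of these passed limma (adjusted p = 0.26 and 0.0626), and Ighv1-84 passed without cKO library 3 (adjusted p = 0.0043). Ighv1-4 and Ighv1-54 were also at 0 in cKO library 2 and did not pass. The number of heavy segments that rose was 3 with all libraries, or 42.9%, against 65.3% of all listed genes. That number was 5 without cKO library 2, 4 without cKO library 3 and 2 without any 1 control library.

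Ighv1-54 and Igkv9-123 had the same value in cKO library 1, 3.78 FPKM, and 0.450 and 0.901 FPKM in cKO library 3. Their annotated transcripts are both 377 bases long. The number of fragments behind these values is unknown.

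Kappa variable segments summed to 304, 101 and 169 FPKM in cKO libraries, against 53.6, 37.2 and 37.5 FPKM in control libraries. Set against Igkc this was 62.6%, 31.1% and 53.1% in cKO libraries and 36.7%, 33.1% and 43.6% in control libraries, and these ranges overlapped. Of 100 annotated kappa variable genes 11 were listed, and 6 of these rose, or 54.5%, against 65.3% of all listed genes.

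Igkv15-103 (chromosome 6, 68437440 to 68437925), whose sequence is not shared with another transcript at 50 bases, was the leading kappa segment in 5 of 6 libraries. It was at 101, 22.3 and 73.4 FPKM in cKO libraries and 22.1, 8.29 and 20.8 FPKM in control libraries. The lowest cKO library was only just above the highest control library. Its 3.85-fold rise (limma log2 difference 1.75, SE 0.62, adjusted p = 0.0389) passed without cKO library 2, and was lost when any of the other 5 libraries was left out (adjusted p = 0.0530 to 0.123).

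In control library 2 the leading kappa segment was Igkv10-96, at 13.8 FPKM. Elsewhere Igkv10-96 was at 52.3, 19.4 and 14.9 FPKM in cKO libraries and at 11.4 and 0.632 FPKM in control libraries 1 and 3. It did not pass limma (adjusted p = 0.087), and its ratio of means was 3.36, or 1.99 without cKO library 1. The values of Igkv8-21 were 51.9, 11.8 and 8.60 FPKM in cKO libraries and 2.22, 7.74 and 8.50 FPKM in control libraries, so 1 cKO library set its mean. It did not pass either (adjusted p = 0.090).

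Igkv5-48 was at 12.8, 4.52 and 7.48 FPKM in cKO libraries and listed at 0 in all control libraries. It had the largest limma difference of the 31 on the log2(FPKM + 1) scale, 3.11 (SE 0.32, adjusted p = 0.0012), and like Igkv15-103 it has no shared window. Igkv6-13 was at 1.88, 11.6 and 6.33 FPKM in cKO libraries and at 0.134, 0 and 0 FPKM in control libraries, and rose (limma log2 difference 2.63, adjusted p = 0.0050). For this segment cKO library 1 was the lowest of the cKO libraries, whereas it was the highest for Igkv5-48. The other kappa segments that rose were Igkv1-117, Igkv12-44 and Igkv4-80, and those that did not pass besides the above were Igkv4-59, Igkv16-104 and Igkv9-123.

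The lambda segments Iglv1 and Iglv2 are 2 of the 3 annotated lambda variable genes, and Iglv1 joins mainly to Iglc1 and Iglv2 to Iglc2. Iglv1 was at 77.5, 36.5 and 69.1 FPKM in cKO libraries and 18.0, 7.60 and 10.6 FPKM in control libraries, and rose 5.05-fold (limma log2 difference 2.25, SE 0.38, adjusted p = 0.0036). It followed the order of Iglc1 among the cKO libraries, at 1.33, 1.23 and 1.32 times Iglc1. In control libraries the same ratio was 2.77, 0.766 and 1.29. Reads of Iglv1 and Iglc1 may also come from the antisense gene 2010309G21Rik, which covers both, since strand-specific counting is not stated.

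Iglv2 was at 27.3, 31.5 and 42.0 FPKM in cKO libraries and 7.44, 17.0 and 0.719 FPKM in control libraries. The groups did not overlap, but control library 2 was 23.6 times control library 3. Its 4.01-fold rise (limma adjusted p = 0.0317) was lost without any 1 cKO library or control library 1 (adjusted p = 0.0546 to 0.0817), and was 8.23-fold without control library 2. It stood at 1.31, 1.51 and 2.06 times Iglc2 in cKO libraries and 0.927, 1.52 and 0.239 times Iglc2 in control libraries. Of its windows 24.0% are shared with Iglv1.

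Among the 7 listed heavy segments, concentration on few segments was lower in cKO libraries. Of these 7, 5 were at 0 in every control library, so no control library could have more than 2 above 0. The leading heavy segment held 39.3%, 59.7% and 66.5% of the listed heavy variable FPKM in cKO libraries, against 90.7%, 85.1% and 100% in control libraries. The number of heavy segments above 0 was 7, 4 and 5 in cKO libraries and 2, 2 and 1 in control libraries. The effective number, the inverse Simpson index that counts segments weighted by their share, was 4.33, 2.34 and 2.07 in cKO libraries and 1.20, 1.34 and 1.0 in control libraries. These groups did not overlap in any of the 3 measures. Because of the segments at 0, all 3 measures depend on which segments were listed and do not compare all heavy segments. Control libraries also had at most 1.77 FPKM in these segments in all, and the part of that low level, and of the selection of listed genes, in their concentration was not tested.

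For the kappa chain the leading segment held 33.3%, 22.2% and 43.6% in cKO libraries and 41.1%, 36.9% and 55.6% in control libraries, and these ranges overlapped. The leading 3 segments held 67.6%, 54.8% and 67.4% in cKO libraries, against 81.1%, 80.0% and 88.7% in control libraries, with no overlap. The effective number of kappa segments was 5.25, 6.89 and 4.22 in cKO libraries and 3.85, 4.07 and 2.66 in control libraries. Of the 11 kappa segments, Igkv4-80, Igkv5-48 and Igkv9-123 were listed at 0 in all control libraries. The part of the selection of listed genes in these kappa measures was not tested either. No cKO library was made up mainly of 1 listed kappa segment, and cKO library 2, with the lowest kappa sum of that group, was the most even of the 6.

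**Figure D5:**
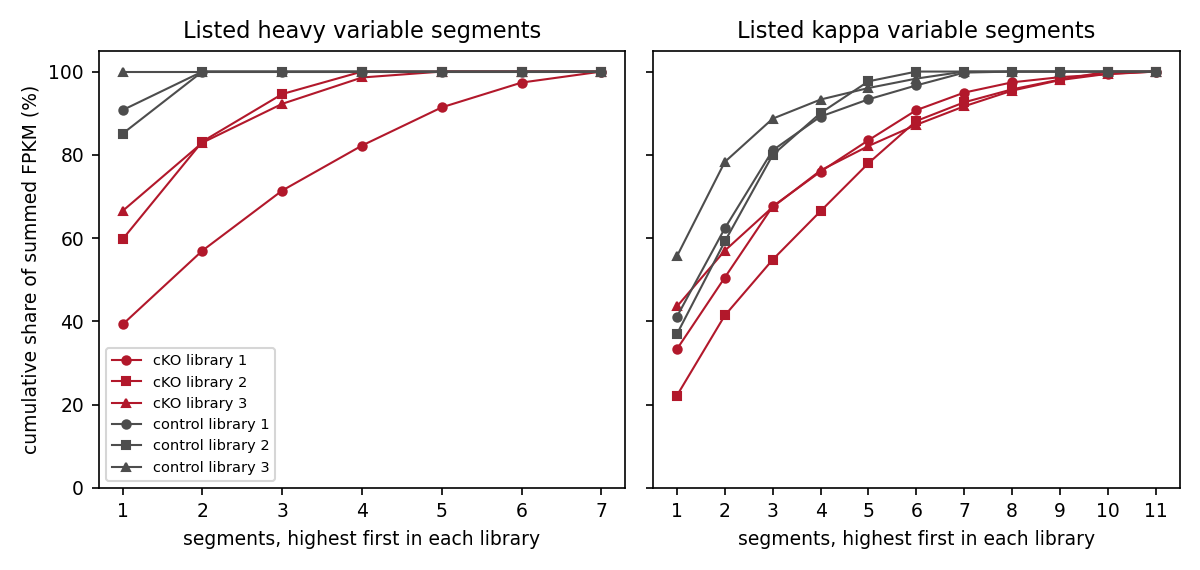
Cumulative share of the summed FPKM (%) held by the listed heavy (left) and kappa (right) variable segments, ranked from the highest in each library, with cKO libraries in red and control libraries in grey. The control curves reach 100% within 2 heavy segments, and the cKO curves lie lower, at 39.3% to 66.5% for the first heavy segment.

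Few other genes of B cells and plasma cells were among the listed genes. Of 25 genes of a B cell list 2 were listed and both rose, against 65.3% of all listed genes. Cd22, an inhibitory receptor of B cells, was at 0.501, 0.795 and 0.666 FPKM in cKO libraries, against 0.0770, 0.0644 and 0.0352 FPKM in control libraries (limma adjusted p = 0.0021). Its 11.1-fold rise is from a control level even lower than that of Cd79a. Ly86, which encodes a surface protein of B cells and macrophages, rose 2.76-fold to 8.46 ± 0.49 FPKM in cKO libraries, against 3.07 ± 0.25 FPKM in control libraries (SD, n = 3 each).

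Of 20 genes of a plasma cell list 3 were listed, of which 2 rose, against 65.3% of all listed genes, and 1 did not pass limma. Mzb1, a chaperone of antibody assembly in plasma cells and marginal zone B cells, was at 3.41, 2.27 and 2.47 FPKM in cKO libraries and 0.839, 0.806 and 0.481 FPKM in control libraries. It rose 3.83-fold (limma adjusted p = 0.0023), and cKO library 1 was the highest, as for Igkc, Igha and Jchain. Sdc1, a plasma cell marker that epithelial cells also express, rose 1.82-fold to 23.7 ± 0.89 FPKM in cKO libraries, against 13.0 ± 1.75 FPKM in control libraries (SD, n = 3 each). Fkbp11, an endoplasmic reticulum protein of secretory cells, averaged 203 ± 36.6 FPKM in cKO and 263 ± 50.4 FPKM in control libraries and did not pass (limma adjusted p = 0.12).

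Of 9 genes for antibody receptors and transport 5 were listed. All 5 rose, against 65.3% of all listed genes, and their median fold was 2.94, against 1.91. They were the Fc receptor genes Fcgr1, Fcgr2b, Fcgr3 and Fcgr4 and the Fc receptor chain gene Fcer1g. Of these Fcer1g was the highest, at 27.1 ± 1.83 FPKM in cKO and 12.8 ± 1.57 FPKM in control libraries (SD, n = 3 each). Of 14 genes that attract B cells or keep them alive 1 was listed. Cxcl13, the chemokine that draws B cells into follicles, was at 13.4, 13.1 and 19.7 FPKM in cKO libraries and 3.85, 3.86 and 2.47 FPKM in control libraries, and rose 4.54-fold (limma log2 difference 1.89, SE 0.23, adjusted p = 0.0016).

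Listed myeloid, pan-leukocyte and prostate epithelial markers were also higher in cKO libraries. Of 18 myeloid and pan-leukocyte genes 14 were listed. All 14 rose, against 65.3% of all listed genes, and their median fold was 2.14, against 1.91. Their summed level was 925 to 960 FPKM in cKO libraries, against 382 to 551 FPKM in control libraries. The highest members of this list were Cd74, H2-Eb1, H2-Aa and H2-Ab1. Pan-leukocyte genes are not limited to myeloid cells, so the sum may include RNA of B cells. All 4 listed genes of 16 prostate epithelial markers rose too, against the same 65.3%. They were the basal keratin genes Krt5, Krt14, Krt15 and Krt17, at a summed 164 to 198 FPKM in cKO and 84.0 to 113 FPKM in control libraries. Of 18 T cell and NK cell genes none was listed, so they were not analysed here. Relative to Ptprc, the pan-leukocyte antigen CD45, Igkc stood at 125, 90.2 and 74.1 times its level in cKO libraries and 114, 53.0 and 68.8 times in control libraries, so the groups overlapped. Cd79a stood at 0.395, 0.326 and 0.357 times Ptprc in cKO libraries, against 0.173, 0.0400 and 0.102 times in control libraries, with no overlap. Cd79b, the partner chain, stood at 0.269, 0.434 and 0.246 times Ptprc in cKO libraries and 0.178, 0.206 and 0.262 times in control libraries, and these ranges overlapped. The part of cell composition in any of these differences was not tested.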

How the data were processed

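RNA-seq values of 6 libraries were used, 3 from E-cadherin conditional knockout and 3 from control mice, grouped by the genotype label. Per the submitters' processing notes, Cuffdiff, Cufflinks 2.2.1 and TopHat2 2.0.14 were among the tools and GRCm38 was the build. The deposited table gives 1 FPKM value per gene and library for 632 genes that the authors had selected, by a rule not given in the sources used here. The unit was inferred from these tools and the values, since the header does not name it. The labels' protocols name both a bulk and a droplet single-cell library kit. All 31 members matched GENCODE M21 by identifier.

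All listed genes were fitted on log2(FPKM + 1) in limma 3.58.1 under R 4.3.3, with a prior that follows mean level, after a check on simulated data, with Benjamini-Hochberg adjustment and a threshold of 0.05. The pseudocount understates the change of low genes. No block was used, and no value was recovered as reads. Python 3.11.15, numpy 2.4.6, scipy 1.17.1, pandas 2.3.3, Biopython 1.88 and matplotlib 3.10.9 were used. Members, lists and tests were chosen with earlier results of these data known. Named in full were all members outside the variable segments, the 2 highest heavy and light segments of each library and the 5 segments with the largest differences. Igkv8-21, Igkv16-104, Ighv1-4, Ighv1-54, Igkv9-123 and the ratios to Cd79b and of heavy segments to Cd79a were added after values were seen. Alternatives were a pseudocount of 0.1, a mean of at least 1 FPKM, 2 centrings, 1 prior for all genes, adjustment over annotated genes, other measures of concentration and leaving out each library.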

Additional observations from a re-analysis of the deposited data

How the results depend on the processing

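All 31 members stayed higher in cKO libraries on every scale tried. Without cKO library 1, Ighv5-9 was at 0 in all remaining libraries. Of the members, 22 rose by limma with all libraries, and 18 to 25 with 1 library left out. Of all listed genes, 65.3% rose with all libraries and 57.8% to 64.9% with 1 library left out. On a scale where the median ratio of listed genes is 0, a shift of 0.93 on the log2 scale, 12 rose, against 11.2% of all listed genes. With p adjusted over the 21951 protein-coding genes of the annotation, 2 rose, Cd79a and Igkv5-48, against 3.64% of the listed genes. With a pseudocount of 0.1 or 1 prior for all genes 22 rose, against 65.3% and 65.8% of all listed genes. With a mean of at least 1 FPKM 19 of 23 rose, against 62.1% of the listed genes at that level. On a scale centred on the gap between listed rises and falls, a shift of 0.15, 21 rose, against 61.7%. With 1 library left out, the difference in the share of heavy constant FPKM, in percentage points, ranged from -4.14 to 4.27 for Igha, from -5.20 to 0.43 for Ighm, from -0.69 to 3.36 for Ighg2b and from -1.19 to 0.36 for Ighg2c, so for these 4 its sign depended on single libraries. For Ighg3 it ranged from 0.42 to 1.40 and kept its sign. Class sums and concentration kept their direction under all alternatives run. For heavy segments some of these could not have reversed it. The leading 3 held 100% in every control library, where at most 2 segments were above 0. At a mean of at least 1 FPKM 2 heavy segments remained. Of these Ighv12-3 was at 0 in every control library, so the leading share was 100% in each. The difference in leading share was then -11.5 percentage points, against -36.8 with all 7 heavy segments. A median of ratios was not run for heavy variable segments, since most had no ratio. No paired analysis was possible because the sample titles of the groups share no numbers. Depth is unknown, so no counting error is given for segments under 1 FPKM.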
